A study of Homo sapiens with 6 samples.

Results

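RPMI 8226 is an established human multiple myeloma line, a tumour of plasma cells. The RNA described here came from its control samples, which had been transduced by lentivirus with shLuc, a short hairpin RNA against luciferase, a gene that human cells lack. These are 3 of the 6 samples of the series, and the other samples carried a hairpin against HDAC1 and are not described here. All samples had been grown in medium with 10% serum and kept in puromycin for 48 h after transduction, so the control cells are vector-bearing, selected cells of 1 cell line and not untouched cells. The labels number the control samples as replicates 1 to 3 without saying more of how each was grown, and the spread between them may be partly technical.

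Plasma cells are the antibody-secreting end stage of the B cell lineage. They switch off most genes of the mature B cell, switch on the regulators IRF4, PRDM1 and XBP1, and enlarge the endoplasmic reticulum (ER), where immunoglobulin chains are threaded through the translocon, glycosylated, folded and checked before transport to the Golgi. A myeloma is a clone of such cells, so it makes a single light chain, of kappa or lambda type, and in some cases no heavy chain.

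Expression is given in TPM, the usual length-corrected unit of transcript abundance, which is a share of the library, summed here over the annotated transcripts of each gene. Levels of different genes can therefore be compared. TPM keeps no record of read number, so the depth of each sample is unknown and no counting error can be given. A gene counted as expressed at 1 TPM or more. The number of transcripts above 0 TPM was 76756, 82527 and 74063 in replicates 1 to 3, and genes at 10 TPM or more numbered 7577, 7701 and 7719. With 1 group of 3 samples there was no comparison between groups and no test, and all differences between genes are read against the spread of the 3 values.

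The plasma cell genes that define the line were present in every sample. ITGB7, the beta 7 integrin subunit, stood at 1900, 1809 and 2017 TPM and was the 82nd most abundant gene by its mean (1909 ± 105 TPM, SD, n = 3). MZB1, an ER co-chaperone of B lineage cells, stood at 1541, 1436 and 1485 TPM. The other markers were lower. XBP1, the transcription factor of the unfolded protein response, had 357, 376 and 355 TPM. TNFRSF17, the gene of the survival receptor BCMA, had 168, 164 and 170 TPM. For these sums over all transcripts of a gene, the ranges did not touch each other, nor did they reach the next 2 genes. SDC1, the gene of the surface proteoglycan CD138, had 141, 134 and 156 TPM, and CD38, an ectoenzyme used to identify plasma cells, had 138, 147 and 138 TPM. The ranges of SDC1 and CD38 overlapped, and their order changed between samples. IRF4 was the lowest of the 7 markers with 49.3, 58.4 and 56.3 TPM, at rank 2852 of all genes.

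**Figure D1:**
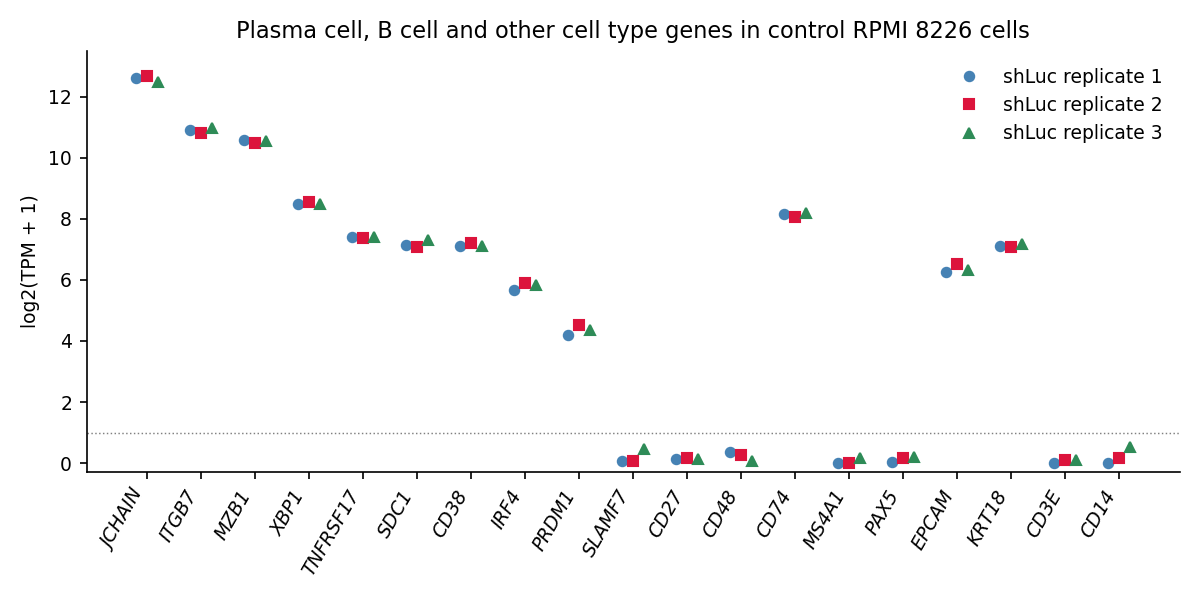
Level of plasma cell, B cell and other cell type genes in each of the 3 shLuc samples, as log2(TPM + 1); each symbol is 1 sample and the dotted line marks 1 TPM. The plasma cell genes from JCHAIN to PRDM1, together with CD74, EPCAM and KRT18, lie above the line in every sample, while SLAMF7, CD27, CD48, MS4A1, PAX5, CD3E and CD14 lie below it.

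Over a list of 30 plasma cell and myeloma genes, 26 had a mean of 1 TPM or more and 9 of 100 TPM or more. Of all 19652 protein-coding genes, 11005 and 1630 reached these levels. JCHAIN, which joins secreted antibody units, led the list and was the fifth most abundant gene of the transcriptome, at 6185, 6598 and 5742 TPM. The list's 4 lowest members were close to 0: SLAMF7, a myeloma antibody target, had a mean of 0.166 TPM, CD48 of 0.185 TPM, CD27 of 0.106 TPM and LAX1 of 0.0443 TPM. These 4 were named after their values were seen. PTPRC, the gene of the leukocyte antigen CD45, had a mean of 0.220 ± 0.0992 TPM, and CD44, an adhesion receptor, one of 1.59 ± 0.341 TPM. Targets of drugs used or tested in myeloma were at unequal levels: CD38 and TNFRSF17 exceeded 100 TPM, CRBN, the receptor of lenalidomide, had 24.9 ± 2.24 TPM, FCRL5 had 2.30 ± 0.283 TPM and GPRC5D had 1.18 ± 0.557 TPM.

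Genes of the mature B cell were at unequal levels. Of 22 such genes, 11 reached 1 TPM and 1 reached 100 TPM, and of all 19652 protein-coding genes 11005 and 1630 did, so the counts of the list lay near those of all genes. The gene above 100 TPM was CD74, the invariant chain of MHC class II, with 286, 266 and 291 TPM. CD83, an activation antigen, had 32.8 ± 1.16 TPM and SPI1, a transcription factor of myeloid and B cells, had 26.9, 28.5 and 31.4 TPM. The B cell identity factor PAX5 (0.0953 ± 0.0525 TPM) and MS4A1, the gene of CD20 (0.0381 ± 0.0660 TPM), lay near 0. HLA-DRA was listed at 0 in all samples, but it lies in a region with alternative haplotypes, and a 0 in these files says only that the matched transcripts were listed at 0.

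Markers of other cell types were checked with lists for T and NK, myeloid, stromal, epithelial, endothelial and erythroid cells. Of 55 such genes, 9 had a mean of 1 TPM or more, against 11005 of all 19652 protein-coding genes. Together all 55 held 0.0275% ± 0.00109 of the TPM. Most of that was epithelial: EPCAM, an epithelial adhesion molecule, had 76.2, 90.8 and 78.5 TPM, and KRT18, a simple-epithelium keratin, had 136, 134 and 144 TPM. KRT8, the keratin partner of KRT18, had 25.3 ± 5.39 TPM, while the basal keratin KRT5 had 0.175 ± 0.174 TPM. In the other lists the highest means were those of CD68 (8.49 ± 1.53 TPM), ITGAM (2.26 ± 0.240 TPM) and S100A9 (0.812 ± 0.308 TPM) among myeloid genes, of PECAM1 (2.17 ± 0.513 TPM) among endothelial genes, and of CD8A (2.09 ± 0.138 TPM) among T and NK cell genes. The T cell genes CD3D and CD2, the NK cell gene NKG7, the granulocyte genes S100A8 and MPO, the stromal genes COL3A1 and LUM and the endothelial genes CDH5 and KDR were listed at 0 in all 3 samples, as was the haemoglobin gene HBB.

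Myelomas often carry a translocation that places an oncogene beside an immunoglobulin locus, and 11 genes known as partners were examined. MYC, a growth-promoting transcription factor, was the highest, with 692, 704 and 740 TPM. MAF, a transcription factor gene, followed with 185, 178 and 213 TPM, and CCND2, the gene of cyclin D2, with 111, 127 and 126 TPM. MYC lay above MAF in every sample, and MAF above CCND2. NSD2, a histone methyltransferase gene, had 85.4 ± 8.09 TPM and its frequent companion FGFR3 had 0.128 ± 0.0186 TPM. The 3 D-type cyclins were all expressed, with 41.8 ± 1.89 TPM for CCND3 and 31.3 ± 0.957 TPM for CCND1 below CCND2.

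Antibody transcripts were almost wholly those of a lambda light chain. IGLC2, a constant region gene of the lambda locus on chromosome 22, was the second most abundant gene of the cells at 14251, 13447 and 13754 TPM. The kappa constant gene IGKC stood at 167, 152 and 162 TPM, so lambda made up 98.9% ± 0.0260 of the light chain constant TPM. The heavy chain constant genes summed to 29.6, 24.4 and 28.1 TPM, nearly all of it IGHG1 (26.7 ± 2.37 TPM), and the heavy chain variable genes summed to 0.293 ± 0.310 TPM. JCHAIN, whose product binds heavy chains of IgA and IgM, exceeded the summed heavy chain constant genes by 209, 270 and 205 times.

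The variable region signal fell on 2 genes. IGLV2-14 had 6235, 6529 and 5957 TPM and IGLV2-23 had 5569, 5557 and 5466 TPM, and together they held 99.9% ± 0.0192 of the lambda variable TPM. The ratio of lambda variable to lambda constant TPM was 0.826, 0.896 and 0.829. The 2 variable genes differed at 13 of 340 coding bases compared without gaps, so the split between them is uncertain, as a single rearranged and mutated gene can match both. The same holds within the constant genes, where IGLC3 (36.6 ± 8.06 TPM) differed from IGLC2 at 3 of 317 coding bases. IGLC7, with 13.9 ± 2.22 TPM, differed at 13. The constant exon of IGLC2 begins at 22900976 on the plus strand of chromosome 22 (GRCh38), and its first 30 bases are shown because this exon holds more TPM than any other immunoglobulin sequence of the cells.
IGLC2: gtcagcccaaggctgccccctcggtcactc

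A small number of genes held a large part of the RNA. The 10 most abundant genes held 7.94%, 7.88% and 7.70% of the TPM, the 100 most abundant 31.3%, 30.6% and 30.6%, and 349, 369 and 372 genes were enough to reach 50%. EEF1A1, which brings aminoacyl-tRNA to the ribosome, was the first in all samples at 18520, 19358 and 18162 TPM. After the immunoglobulin genes IGLC2 and IGLV2-14 came RPS3 (6212 ± 174 TPM), JCHAIN (6175 ± 428 TPM), RPL41 (5939 ± 383 TPM) and RPS23 (5884 ± 184 TPM), 3 of which encode ribosomal proteins. The spreads of these 4 genes and of IGLV2-14 overlapped, and their full order changed between samples. RPS3 lay above RPL41 and RPS23 in every sample, and IGLV2-14 above RPS23. Of the 25 most abundant genes, 16 encoded ribosomal proteins and 3 were immunoglobulin genes, which may be parts of the same message. The others were EEF1A1, JCHAIN, the prolyl isomerase gene PPIA (4948 ± 106 TPM), the poly(A) binding protein gene PABPC1 (3729 ± 109 TPM), the constitutive chaperone gene HSPA8 (3622 ± 142 TPM) and the glycolytic enzyme gene PKM (3471 ± 171 TPM).

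Protein synthesis was the leading class. The 79 cytosolic ribosomal protein genes held 18.7% ± 0.364 of the TPM, with a median of 2167 TPM per gene, against 20.8 TPM over all expressed protein-coding genes. Elongation and initiation factors, counted with PABPC1 and TPT1 as a list of 39 genes, held 4.71% ± 0.0983. The highest of the list were EEF1A1, PABPC1 and TPT1 (2780 ± 185 TPM). The nuclear-encoded subunits of oxidative phosphorylation held 3.29% ± 0.0602. Mitochondrially encoded mRNAs held less, at 1.59% ± 0.0776, although MT-ATP8 and MT-ND4L, which every cell uses, were listed at 0. The 209 immunoglobulin genes held 2.58% ± 0.0454, and 182 of them were at 0 in all samples. Variable and constant genes are annotated apart, so a light chain message that joins them can add to this share under each.

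Housekeeping classes of the cytosol were close to each other in size. Genes of RNA binding and splicing held 1.98% ± 0.0387, the cytoskeleton 1.96% ± 0.0700 and the cytosolic chaperones 1.95% ± 0.0309, and these 3 shares did not differ beyond their spread. Their highest members were YBX1 (2821 ± 105 TPM), TMSB4X (2919 ± 131 TPM) and PPIA. Glycolysis held 1.51% ± 0.0389, led by PKM, ENO1 (2914 ± 169 TPM) and GAPDH (2343 ± 56.2 TPM). Of the first enzymes of that pathway, the hexokinase gene HK1 had 0.0421 ± 0.0229 TPM and HK2 had a mean of 25.2 TPM, both named after their values were seen. The core proteasome, the target of bortezomib, held 0.412% ± 0.00964. Its leading genes were PSMB4 (556 ± 13.8 TPM), PSMB7 (554 ± 16.3 TPM) and PSMA7 (476 ± 10.7 TPM), and PSMB5, which encodes the subunit that bortezomib binds, had 144 ± 6.09 TPM.

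**Figure D2:**
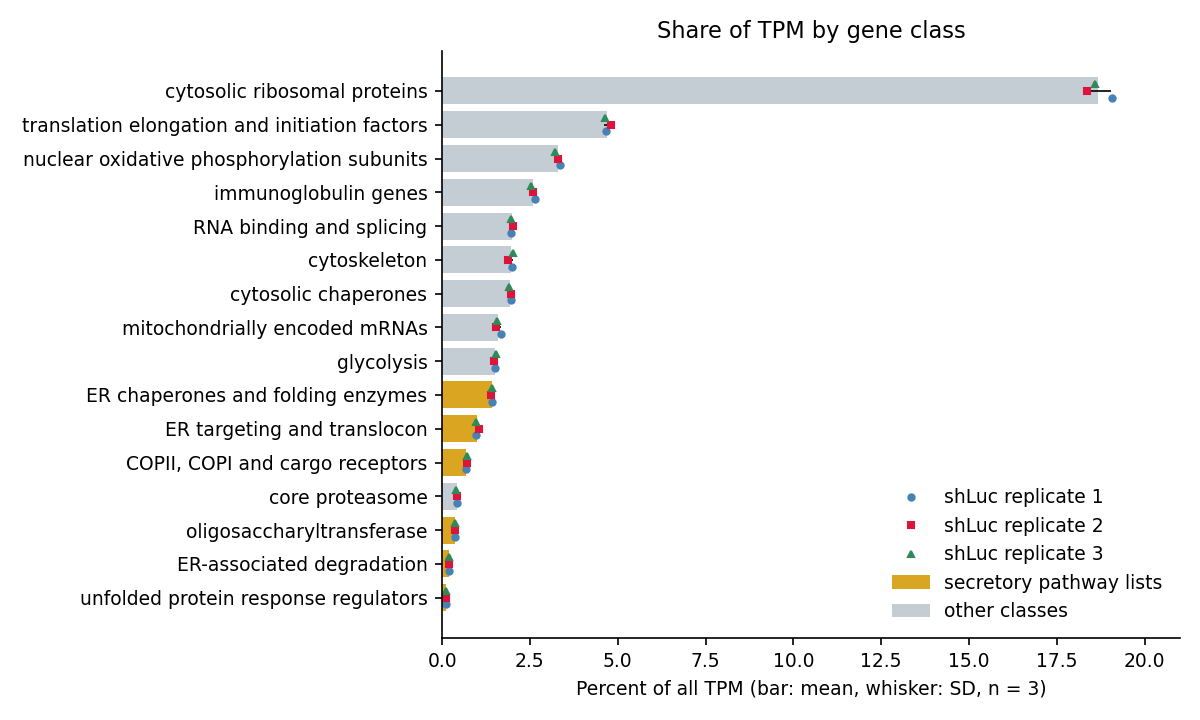
Share of all TPM held by 16 gene classes; bars give the mean of the 3 shLuc samples, whiskers the SD and symbols the single samples, with the secretory pathway lists in yellow. Ribosomal proteins lead with 18.7%, and the largest secretory list, the ER chaperones, holds 1.41%.

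The TPM of ribosomal protein genes lay to a large extent in transcripts that the annotation does not class as complete coding transcripts. GENCODE gives each transcript of a gene a type: protein coding, retained intron, processed transcript (spliced without an open reading frame) or a substrate of nonsense-mediated decay, the pathway that removes mRNAs with an early stop codon. It also marks coding transcripts whose start or end is missing. Over the ribosomal protein genes, complete coding transcripts held 53.5% ± 0.520 of the TPM, retained-intron transcripts 16.7%, processed transcripts 12.8% and substrates of that decay 4.96%. For all protein-coding genes the complete coding share was 63.4% ± 0.609, and for the secretory lists it was 70.8% ± 0.463.

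The ribosomal protein genes differed widely among themselves. The complete coding share ran from 0% to 99.9% with a median of 61.2%, and it was below 10% for 11 of the 79 genes. Such low shares were not particular to this class: of 15974 protein-coding genes above 0 TPM, 1646 were below 10%. RPL19, RPS15 and RPS20 had nearly all of their TPM in complete coding transcripts. RPS27 had none: its 573-base retained-intron transcript RPS27-204 held 3442, 3075 and 3264 TPM and its coding transcript RPS27-201, of 359 bases, was listed at 0 in every sample. RPL37 had 3791, 3423 and 3703 TPM in the 505-base processed transcript RPL37-202, and RPS23 had 4026, 3544 and 3922 TPM in the 595-base processed transcript RPS23-202. In RPL41, which encodes the smallest ribosomal protein, the processed transcript RPL41-201 held 4480, 4025 and 4176 TPM, and complete coding transcripts held 2.73%, 3.64% and 3.21% of the gene. These patterns were alike in all 3 samples. Ranked by complete coding transcripts alone, 9 of the 25 most abundant protein-coding genes stayed among the first 25, and 11 of the new 25 encoded ribosomal proteins. EEF1A1 (14184 ± 97.5 TPM), JCHAIN and PPIA (4864 ± 105 TPM) then led, followed by RPS14 (3226 ± 157 TPM) and FTL, the ferritin light chain gene (3211 ± 99.0 TPM). When only transcripts of the GENCODE basic set, a subset of well-supported full-length models, were summed, the ribosomal protein genes held 10.0% of the TPM and the 100 most abundant genes 21.3%. The tool that assigned reads to transcripts is not given in the sources used here, and its part in these shares was not tested.

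**Figure D3:**
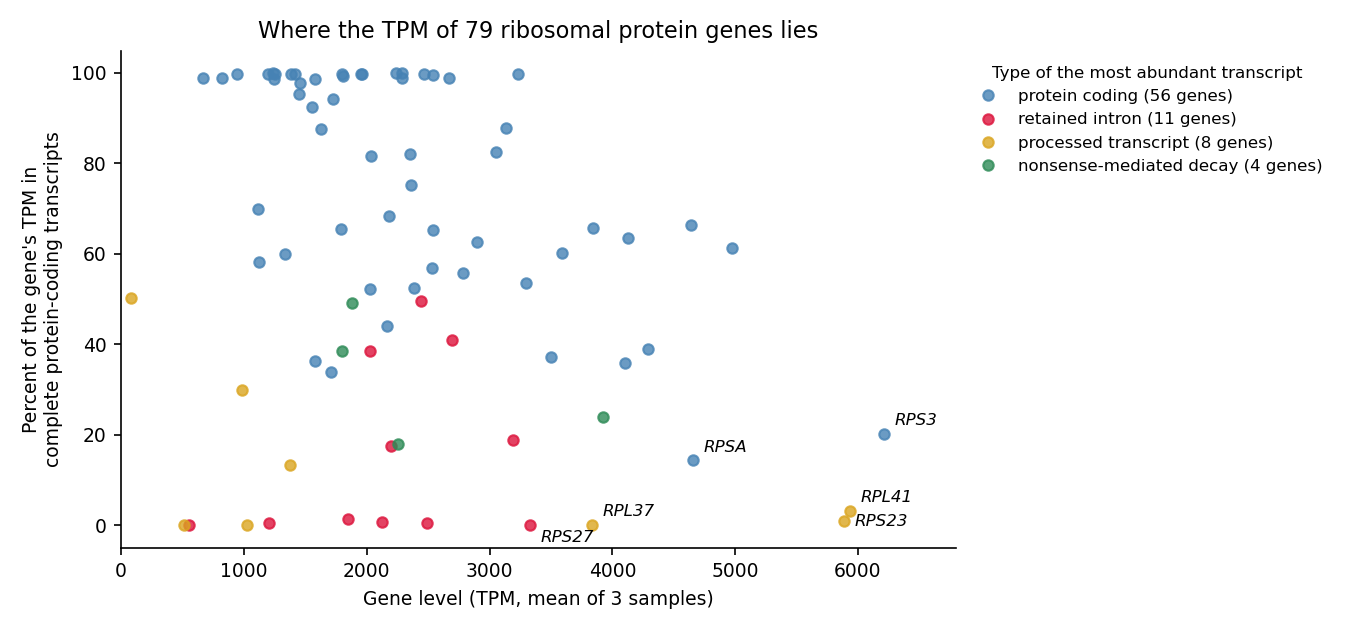
Each point is 1 of 79 ribosomal protein genes, with its mean TPM on the horizontal axis and the percent of that TPM in complete protein-coding transcripts on the vertical axis; the colour gives the annotated type of its most abundant transcript. Genes with a coding top transcript spread from 14.4% to 99.9%, and RPS27, RPL37, RPS23 and RPL41 are among the genes at the bottom, at 0% to 3.20%.

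The secretory pathway was expressed almost completely. Of 163 genes in 6 lists that follow a secreted protein from the ER membrane to the Golgi, 160 had a mean of 1 TPM or more and 86, or 52.8%, had 100 TPM or more. Of all 19652 protein-coding genes, 11005 had a mean of 1 TPM or more and 8.29% had 100 TPM or more. Of the expressed ones, 14.8% reached 100 TPM. The lists together held 3.76% ± 0.0388 of the TPM, with a median of 125 TPM per gene. Of the 163 genes, 1, PPIB, was among the 100 most abundant of all 34500 genes, and 42 were among the 500 most abundant.

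Entry into the ER was led by the translocon-associated proteins, which bind the Sec61 channel. All 25 genes of targeting and translocation were expressed, and they held 0.991% ± 0.0419 of the TPM. SSR3, a translocon-associated protein gene, had 1377, 1495 and 1336 TPM, SSR1 had 882, 982 and 932 TPM and SSR2 had 844, 802 and 847 TPM. The channel itself was lower, with 452 ± 5.02 TPM for its pore gene SEC61A1. The tissue variant SEC61A2 had 4.61 ± 1.01 TPM.

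Of the 12 genes of the oligosaccharyltransferase, which attaches N-glycans to chains as they enter the ER, 11 were expressed and 10 exceeded 100 TPM. TMEM258 (582 ± 12.9 TPM), DDOST (484 ± 15.9 TPM) and KRTCAP2 (441 ± 6.47 TPM) led. The catalytic subunit genes were unequal, with 404 ± 18.9 TPM for STT3A, which acts during translocation, and 137 ± 7.98 TPM for STT3B, which acts after it. TUSC3, a subunit gene that alternates with MAGT1, was listed at 0 in all samples, and MAGT1 had 62.6 ± 6.26 TPM.

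ER chaperones and folding enzymes were the largest secretory list. All 42 genes were expressed, 21 of them at 100 TPM or more, and the list held 1.41% ± 0.0104 of the TPM. PPIB, the ER cyclophilin gene, had 2427, 2259 and 2362 TPM and was the highest in each sample. MZB1 and CALR, the gene of the lectin chaperone calreticulin (1373, 1279 and 1319 TPM), came next, then TXNDC5 (1004 ± 18.2 TPM), a disulfide isomerase gene, and CANX (1003 ± 36.8 TPM), the membrane-bound relative of CALR. The last 2 did not differ beyond their spread. HSP90B1, the gene of the ER form of HSP90, had 767, 874 and 748 TPM, and HSPA5, the gene of the central ER chaperone BiP, had 525, 552 and 518 TPM.

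Soluble ER proteins are kept in the ER by a tail of 4 amino acids, KDEL or a near variant, which a receptor in the Golgi returns. Coding sequences of 19207 genes were translated, and 51, or 0.266%, ended in such a tail. A tail was K, R, H, Q, S or A, then D, E, N or Q, then E and L. Nothing else was asked of the protein, so a match need not be an ER protein. Summed over all transcripts of each gene, also those without the tail, the 51 genes held 0.856% ± 0.00228 of the TPM. Of them, 37 were expressed and 11 had 100 TPM or more. Of all 19652 protein-coding genes, 11005 and 1630 reached these levels. Of the 51, 17 were in the chaperone list and 10 ended in KDEL itself. The last 30 coding bases of 9 of the 10 most abundant are shown in order of level, with the 4 tail codons in capitals before the stop codon, because they carry the signal that these otherwise different proteins share (GENCODE 29, GRCh38).
MZB1, tail REEL, chr5:139387765-139387794, minus strand: aaggtgtcagccacaAGAGAAGAGCTCtag
TXNDC5, tail KDEL, chr6:7883144-7883173, minus strand: gtcctgagccaagcgAAAGACGAACTTtag
HSP90B1, tail KDEL, chr12:103947633-103947662, plus strand: gaatctacagctgaaAAAGATGAATTGtaa
P4HB, tail KDEL, chr17:81844012-81844041, minus strand: gatcagaaagctgtgAAAGATGAACTGtaa
PDIA6, tail KDEL, chr2:10784258-10784287, minus strand: cttgatgacttagggAAAGATGAGTTGtga
HSPA5, tail KDEL, chr9:125236592-125236621, minus strand: gaggatacagcagaaAAAGATGAGTTGtag
PDIA4, tail KEEL, chr7:149003794-149003823, minus strand: aaactgagcaggaccAAGGAAGAGCTTtga
PRKCSH, tail HDEL, chr19:11449383-11449412, plus strand: cccaccgaagacgacCATGACGAGCTCtag
LRPAP1, tail HNEL, chr4:3512974-3513003, minus strand: atctccagagctcggCACAACGAACTCtga

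The tails were not uniform. KDEL was the tail in 5 of the 9 shown. MZB1, the most abundant when all transcripts of a gene were summed (1487 ± 52.5 TPM), ended in REEL. Its coding transcript, which holds the tail, had 642 ± 22.7 TPM, or 43.2% of the gene. P4HB (778 ± 43.3 TPM), PDIA6 (764 ± 21.7 TPM) and PDIA4 (364 ± 27.4 TPM) are all disulfide isomerase genes. P4HB and PDIA6 lay above HSPA5 in every sample, and the ranges of P4HB and HSP90B1 overlapped. PRKCSH, a glucosidase subunit gene (319 ± 25.3 TPM), and LRPAP1, a chaperone gene of lipoprotein receptors (252 ± 9.51 TPM), ended in HDEL and HNEL. The receptors that recognise the tail had 134 ± 1.66 TPM for KDELR2, 86.5 ± 2.79 TPM for KDELR1 and 0.725 ± 0.214 TPM for KDELR3, and the ranges of the 3 genes did not overlap.

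Promoters of ER chaperone genes are known for the ER stress element, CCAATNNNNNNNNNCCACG, which ATF6 and XBP1 can use. The RefSeq promoters (GRCh38.p14, 250 bases before to 50 after the start of each gene) were searched for it on both strands. It was found in 6 of 39 chaperone promoters (15.4%) and in 22 of 27305 promoters in all (0.0806%). The 6 genes were CALR, CANX, HSP90B1, HSPA5, CRELD2 (142 ± 6.87 TPM) and ERO1B (3.16 ± 0.735 TPM), so genes with a match had levels from 3.16 to 1324 TPM. XBP1 also held 1 match, and no match was found in the translocon, oligosaccharyltransferase, degradation or vesicle lists. HSP90B1 held 2 matches. The HSPA5 promoter is shown as the best known case (chr9:125241294-125241593, minus strand), with the element in capitals.
HSPA5 promoter: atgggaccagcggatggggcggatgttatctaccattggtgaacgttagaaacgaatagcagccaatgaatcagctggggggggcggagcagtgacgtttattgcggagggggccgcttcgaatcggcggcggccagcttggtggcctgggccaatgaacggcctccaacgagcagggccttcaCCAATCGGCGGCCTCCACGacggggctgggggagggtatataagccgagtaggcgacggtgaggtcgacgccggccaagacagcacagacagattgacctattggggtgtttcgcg

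Export and disposal held smaller shares of the TPM than folding. The median per gene was 115 TPM for vesicle coats and cargo receptors, 112 TPM for ER chaperones and 63.3 TPM for ER-associated degradation. Coat proteins and cargo receptors of the vesicles between ER and Golgi, 50 genes, held 0.691% ± 0.0109 of the TPM, and 48 were expressed. ARF1 (822 ± 36.7 TPM), a small GTPase gene that recruits the COPI coat, TMED9 (439 ± 15.9 TPM), a cargo receptor gene, and COPZ1 (367 ± 1.99 TPM), a COPI subunit gene, led. COPZ2, the paralog of COPZ1, was listed at 0 in all samples. ER-associated degradation, which sends misfolded chains to the proteasome, held 0.194% ± 0.00215 over 21 genes, all expressed, with HERPUD1 (395 ± 13.8 TPM), VCP (182 ± 4.90 TPM) and OS9 (170 ± 6.65 TPM) as the highest.

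Regulators of the unfolded protein response formed the smallest of the 6 lists, with 0.104% of the TPM in each sample over 13 genes, all expressed. ATF4, the transcription factor of the PERK branch, had 417, 391 and 406 TPM and XBP1 came second, and the ranges of the 2 genes did not overlap. Their upstream sensors were lower, with 37.7 ± 3.25 TPM for ATF6, 32.3 ± 2.14 TPM for ERN1, the gene of IRE1, and 22.8 ± 3.90 TPM for EIF2AK3, the gene of PERK. DDIT3, a stress-induced gene of cell death known as CHOP, had 9.61 ± 1.03 TPM, and PPP1R15A, a feedback phosphatase subunit gene, had 3.65 ± 0.309 TPM.

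XBP1 carries its own readout of that response. Active IRE1 cuts a 26-base intron out of the XBP1 mRNA in the cytoplasm, which shifts the reading frame and replaces a 261-codon protein by the 376-codon transcription factor. The intron lies at chr22:28796124-28796149 on the minus strand (GRCh38). It is shown in full, followed by the 28 bases that the spliced transcripts hold across the junction, 14 from each side.
XBP1 intron: CACTCAGACTACGTGCACCTCTGCAG
XBP1 spliced junction: tgctgagtccgcagcaggtgcaggccca

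Both forms were present in the control cells. Transcripts with the junction (XBP1-202 and XBP1-207) had 101, 114 and 91.6 TPM, and transcripts with the intron had 253, 256 and 258 TPM. The junction form made up 28.4%, 30.3% and 25.8% of all XBP1 TPM (28.2% ± 2.26), and the unspliced form was higher in every sample. XBP1-202 is annotated with 1131 bases and XBP1-207 with 1794, and the junction TPM was divided between them unevenly, with 63.4, 48.8 and 65.8 TPM for XBP1-202 and 37.8, 65.4 and 25.8 TPM for XBP1-207. When XBP1-207 alone was set against XBP1-201, the junction share was 14.8%.

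Isoform usage of the most abundant genes was often divided. Over the 100 most abundant protein-coding genes, the leading transcript held a median of 61.0% of the gene, between 19.1% and 100%, and it held over 50% in 67 genes. The leading transcript was the same in all 3 samples for 92 of the 100 genes. For 22 genes it was of a type other than protein coding. The 5 most divided genes were PABPC1, EIF4A1, RPS3A, NCL and HSPA8. PABPC1 had 20 of 24 transcripts at 1 TPM or more, and its 591-codon transcript PABPC1-208 held 13.0% ± 0.591. EIF4A1, a translation initiation helicase gene, had 65.0% of its TPM in transcripts of other types than protein coding. In HSPA8 the 646-codon transcript held 13.4% ± 2.27 and a 410-codon transcript, HSPA8-222, held 28.1% ± 1.61. At the other end, JCHAIN had 100% of its TPM in transcripts of the same 159-codon reading frame, divided between JCHAIN-204 (53.5% ± 2.88) and JCHAIN-201 (46.5% ± 2.88), which differ outside it.

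The marker genes were mixed, some with 1 leading transcript and some divided. IRF4 had 94.5% ± 1.47 of its TPM in its 451-codon transcript and SDC1 86.3% ± 0.504 in the 310-codon transcript SDC1-202. MZB1 had 654, 616 and 657 TPM, or 43.2% ± 0.941, in its coding transcript, and the next 3 transcripts were substrates of nonsense-mediated decay. CD38 had 35.4% ± 1.45 in its 300-codon transcript and 30.1% ± 1.47 in a substrate of that decay. ITGB7 had 784, 723 and 822 TPM in ITGB7-206, a 576-base transcript without a complete reading frame, and 976, 939 and 1050 TPM in its 798-codon transcripts. TNFRSF17 had 122, 135 and 114 TPM in the 184-codon transcript and 41.1, 25.3 and 51.5 TPM in a 135-codon transcript. Thus the full-length levels of MZB1, CD38 and ITGB7 were below those of the genes, at 642 ± 22.7 TPM for MZB1 and 989 ± 56.4 TPM for ITGB7. CD38 had 46.6, 53.7 and 49.6 TPM in its full-length transcript and IRF4 had 47.4, 54.6 and 52.9 TPM. The ranges of CD38 and IRF4, which did not overlap for the whole genes, overlapped for their full-length transcripts. So did those of TNFRSF17 and SDC1, whose 310-codon transcripts had 122, 115 and 137 TPM.

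PKM makes 2 forms of pyruvate kinase from a choice between exons of 167 bases each, PKM1 in muscle and brain and PKM2 in dividing cells. The exons lie at chr15:72203022-72203188 (PKM1) and chr15:72202454-72202620 (PKM2) on the minus strand and are identical at 105 of the 167 bases. Their first 30 bases are shown with the differing bases in capitals.
PKM1 exon: atAgcTcgtgaggcTgaggcAgccatGtTc
PKM2 exon: atTgcCcgtgaggcAgaggcTgccatCtAc

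Transcripts with the PKM2 exon had 1146, 1119 and 1184 TPM and those with the PKM1 exon 58.9, 63.6 and 61.6 TPM, so PKM2 made up 94.9% ± 0.269 of the TPM that could be told apart. A larger part of PKM, 2254 ± 147 TPM, lay in 12 transcripts that hold neither exon. The complete PKM2 transcript PKM-202 had 1096, 1069 and 1122 TPM.

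CDKN2A encodes 2 unrelated tumour suppressors from different first exons, p14ARF, which stabilises p53, and p16INK4a, which inhibits CDK4. The 132-codon transcripts of p14ARF had 98.2, 97.5 and 103 TPM. The 156-codon transcript of p16INK4a was listed at 0, 0.378 and 0.280 TPM. A further group of 105-codon transcripts of the gene had 36.6, 42.0 and 28.1 TPM. The opening 30 coding bases of each form are shown, p14ARF from chr9:21994302-21994331 and p16INK4a from chr9:21974798-21974827, both on the minus strand.
p14ARF: atggtgcgcaggttcttggtgaccctccgg
p16INK4a: atggagccggcggcggggagcagcatggag

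The survival genes BCL2L1 and MCL1 had more TPM in their long, anti-apoptotic forms than in their short forms. BCL2L1 had 42.7 ± 2.36 TPM in 233-codon transcripts (BCL-XL) and 0.605, 2.51 and 1.69 TPM in the 170-codon transcript (BCL-XS). MCL1 had 91.8, 94.2 and 94.9 TPM in the 350-codon transcript and 0.927, 1.15 and 3.82 TPM in the 271-codon transcript. A further MCL1 transcript of 197 codons had 3.60, 12.5 and 0 TPM, so the short forms of MCL1 were uneven between samples. BCL2L1-205, an incomplete transcript that was assigned to neither form, had 16.5 ± 1.13 TPM. In both genes every value of the long form exceeded every value of the short forms. IL6R, the receptor gene of the myeloma growth factor IL-6, had 50.3 ± 1.12 TPM in the membrane-bound 468-codon form and 0.375 ± 0.168 TPM in the soluble 365-codon form. PRDM1 had 10.8 ± 1.70 TPM in its 825-codon transcript. The forms of CRBN were not alike in the 3 samples. The 442-codon transcript had 10.1, 8.67 and 0.800 TPM and the 441-codon transcript 0.0335, 0.0102 and 6.82 TPM. The leading coding form listed for replicate 3 was thus not that of the others. These forms differ in length by a single codon, so the split between them is uncertain. A retained-intron transcript, CRBN-213, held 38.0% ± 3.83 of the gene, which as a whole stood at 24.9 ± 2.24 TPM.

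**Figure D4:**
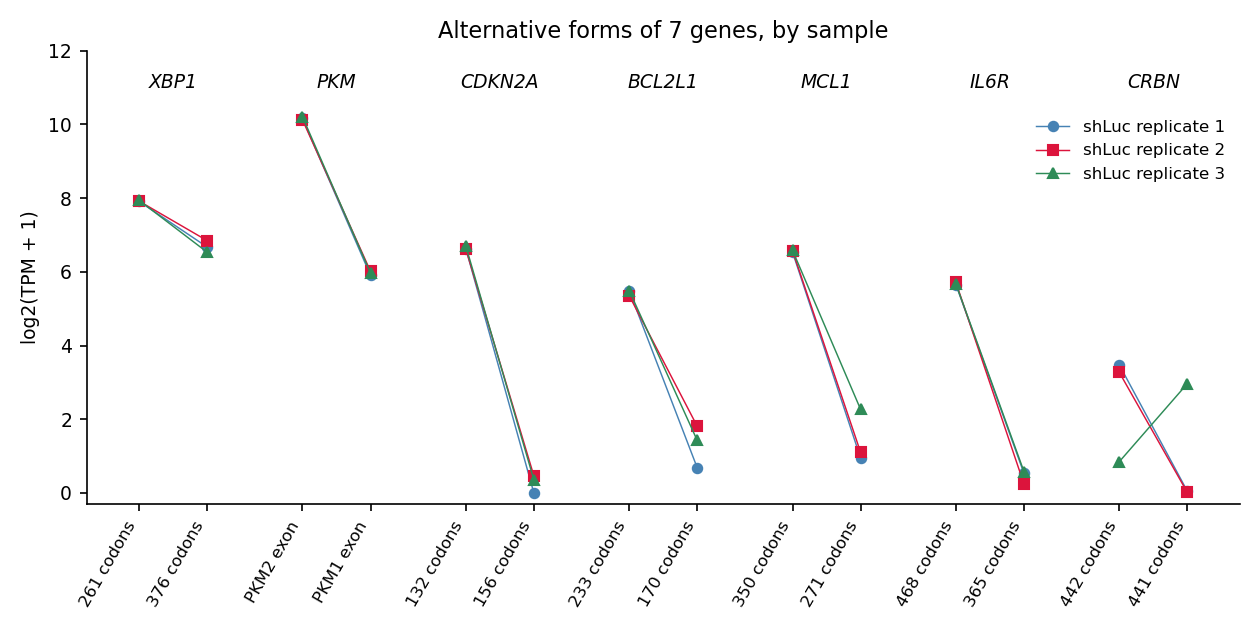
Levels of 2 alternative forms of 7 genes as log2(TPM + 1), with 1 line per shLuc sample; forms are named by their number of codons or, for PKM, by the exon they hold. Of the 2 forms drawn, the first is the higher one in every sample of every gene except CRBN, where shLuc replicate 3 crosses the other samples.

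The 3 samples were close to each other. Across the 11660 genes with a mean of 1 TPM or more, the correlation of log2(TPM + 1) between samples was 0.992, 0.991 and 0.991 (Pearson, a description over genes, which are not independent replicates). Among genes above 0 TPM in both samples of a pair, those over 2-fold apart numbered 203, 287 and 253. Genes at 0 TPM in either sample were not counted. The coefficient of variation (CV, SD over mean) had a median of 8.70% and fell with the level of the gene. It was 18.0% for genes from 1 to 5 TPM, 11.6% from 5 to 10 TPM, 7.72% from 10 to 100 TPM, 5.11% from 100 to 1000 TPM and 3.68% at 1000 TPM and above. Of the genes at 100 TPM or more, 90.5% had a CV under 10%, and for SLBP, which binds histone mRNA, the samples had 151, 151 and 151 TPM. CCT3, a chaperonin subunit gene (609 ± 1.04 TPM), and RPL29 (1629 ± 4.59 TPM) were nearly as even.

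**Figure D5:**
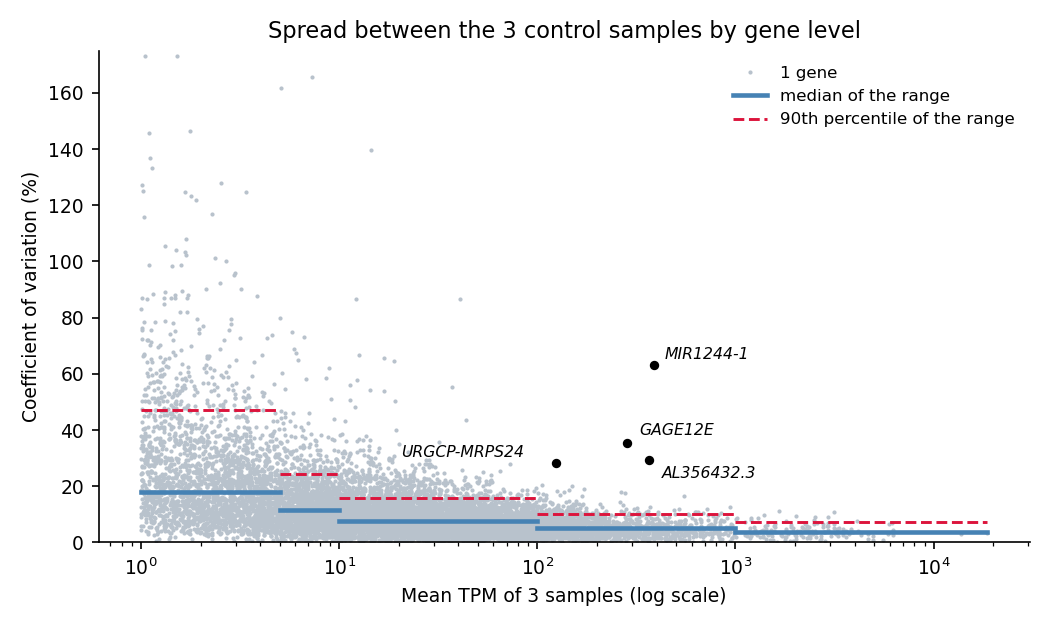
Coefficient of variation over the 3 shLuc samples (vertical axis) against mean TPM on a log scale (horizontal axis), with 1 grey point per gene at 1 TPM or more and bars for the median and 90th percentile of 5 ranges of level. The median falls from 18.0% to 3.68%, and the 4 named genes stand above the others at 100 TPM or more.

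The 4 genes with the widest spread at 100 TPM or more each had 1 annotated transcript, of 85 to 795 bases. MIR1244-1, an annotated miRNA precursor of 85 bases, had 273, 667 and 220 TPM (CV 63.2%). It lies at 231713314 to 231713398 on chromosome 2, inside an exon of 4 of the 12 transcripts of PTMA and on the same strand. PTMA, the gene of prothymosin alpha, had 3307, 2901 and 3167 TPM and was lowest in replicate 2, where MIR1244-1 was highest. The values of the 2 genes summed to 3579, 3568 and 3387 TPM, and since they share bases and strand, the split between them is uncertain. GAGE12E, 1 of several near-identical GAGE copies on chromosome X, had 358, 321 and 170 TPM, and the pseudogene AL356432.3 had 246, 454 and 399 TPM. URGCP-MRPS24, a readthrough gene, had 125, 88.4 and 158 TPM. They were followed, with a CV of 18.6% to 20.5%, by RBM34 (105 ± 21.6 TPM), the replication licensing gene MCM2 (140, 127 and 184 TPM), the cell cycle gene CKS2 (159, 209 and 148 TPM) and the ubiquitin-conjugating enzyme gene UBE2B (122, 174 and 136 TPM).

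Part of the spread went with transcript length. Over 7547 protein-coding genes with a mean of 10 TPM or more, the deviation of replicate 1 from the mean of the other samples had a rank correlation of -0.264 with the length of the gene's leading transcript, against 0.0998 for replicate 2 and 0.116 for replicate 3 (Spearman, a description over genes). Replicate 1 was thus higher for short genes and lower for long genes, and it also had the largest ribosomal share (19.1%, against 18.4% and 18.6%). The cause was not tested. The median length of the leading transcript was 2379 bases for protein-coding genes from 1 to 5 TPM, 2993 bases from 5 to 10 TPM, 2377 bases from 10 to 100 TPM, 1296 bases from 100 to 1000 TPM and 789 bases at 1000 TPM and above. It was thus shorter in the ranges above 100 TPM and did not fall steadily below them.

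Over all genes, protein-coding genes held 93.8% ± 0.0314 of the TPM, and transcripts annotated as protein coding held 71.1% ± 0.291. Within protein-coding genes, 24.2% ± 0.321 of the TPM lay in transcripts of other types, with 9.36% in processed transcripts, 9.08% in retained-intron transcripts and 5.76% in substrates of nonsense-mediated decay. Pseudogenes reached high levels in single cases. RPL9P9, a copy of the ribosomal protein gene RPL9, had 693, 651 and 818 TPM, and MTATP6P1, a nuclear copy of mitochondrial sequence, had 603, 538 and 535 TPM. DUXAP10 had 399, 457 and 426 TPM and HMGB1P6, a copy of HMGB1, had 412 ± 24.0 TPM. A pseudogene can take up reads of its parent gene, so these levels are uncertain.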

How the data were processed

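Whole-transcriptome RNA of 3 shLuc samples was used, and the shHDAC1 samples were not analysed here. The authors deposited 1 table of TPM per Ensembl transcript and sample, per the file headers. STAR, DESeq and hg19 appear in the submitters' processing notes, without version or role. Which program computed the TPM, and on which annotation, is not given in the sources used here.

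Transcripts were matched by identifier, without version, to GENCODE 29, and 159239 of 173259 matched. TPM was summed per gene. Shares are percent of all deposited TPM. A gene counted as expressed at a mean of 1 TPM and log2 values used TPM + 1. Coordinates are those of GENCODE 29 (GRCh38), and none were converted. Tails were read from translated GENCODE 29 coding sequences in place of RefSeq proteins, and promoters from RefSeq. Python 3.11.15, pandas 2.3.3 and numpy 2.4.6 were used, and the summing was checked on simulated data.

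Members and lists were chosen with earlier results of these data known. Named were the 7 markers, the 25 most abundant genes, the 3 highest members and those at 0 of each list, the 5 highest immunoglobulin genes, the 8 highest and 3 lowest genes by CV at 100 TPM or more, a list of isoform genes, the 5 most divided of the 100 most abundant genes, the 10 highest genes with a tail and the 3 highest genes of each other gene type. Not all of these are printed. Other genes were named after their values were seen. Genes of chromosome Y are not named. A few members of the lists are counted but not reported here by name. Depth is unknown and no test was made. Alternatives changed the filter, pseudocount, denominator, transcripts summed, lists and samples.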

Additional observations from a re-analysis of the deposited data

How the results depend on the processing

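No direction between groups can change here, since nothing was compared between groups. Levels, shares and counts moved, and so did the order of some genes. The median CV was 8.70%, and 7.53% at 5 TPM or more, 17.2% over all genes above 0, 8.55% over coding and immunoglobulin transcripts and 6.46% to 7.68% with 1 replicate left out. The median SD of log2(TPM + 1) was 0.114, and 0.103 over all genes above 0, 0.124 with a pseudocount of 0.1, 0.0881 with 5 and 0.0851 to 0.102 with 1 replicate left out. With 1 replicate left out the SD rests on fewer values per gene, and the median of such SDs tends to be lower. Genes above 0 TPM numbered 17878, against 11654 at 1 TPM.

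Rescaled to matched transcripts, the 10 most abundant genes held 8.06%, the 100 most abundant 31.7%, the secretory lists 3.86%, immunoglobulin genes 2.66% and protein-coding transcripts 73.1%. Rescaled without mitochondrial, histone and immunoglobulin genes, the values were 6.96%, 29.6%, 3.94% and, for protein-coding transcripts, 72.5%. With coding and immunoglobulin transcripts only, they were 7.09%, 25.1% and 2.95%. The secretory share was 3.07% without the vesicle list. The XBP1 junction share was 14.8% over 2 transcripts in place of 28.2%.

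Chosen after seeing the data, the GENCODE basic set gave 6.36%, 21.3% and 2.66% for the 10 genes, the 100 genes and the secretory lists, and adding unmatched transcripts of equal value gave 3.80% for the secretory lists. That addition also raised ribosomal protein genes, among them RPS18 from 508 to 2538 TPM and RPL7A from 1575 to 3150 TPM. With the basic set RPS27 was at 0 and MZB1 at 642 TPM. Markers of other cell types at 1 TPM or more numbered 9, and 10 to 11 with 1 replicate left out. No paired analysis was possible because the result comes from no test and 1 group is described. TPM without read numbers gives no counting error.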

Other observations

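Genes of the cancer-testis families, which are expressed in germ cells and in some tumours, ranged from abundant to near 0, and the GAGE family held most of their TPM. Of 64 genes in 8 families on chromosome X, 27 were expressed, and of all 19652 protein-coding genes 11005 were. The 64 genes together had 3371, 3302 and 3084 TPM, or 9.47% of the TPM of that chromosome. The GAGE family had 2540 ± 124 TPM, PAGE1 had 386 ± 17.7 TPM, the MAGEA family 153 ± 2.39 TPM and the CTAG family, which holds the gene of NY-ESO-1, 142 ± 7.09 TPM. The other families were lower, with 17.3 ± 0.910 TPM for MAGEB, 8.91, 6.91 and 7.96 TPM for XAGE, 4.86 ± 0.498 TPM for SSX and 0.777 ± 0.242 TPM for MAGEC. Levels of single GAGE genes are uncertain: 5 GAGE12 genes were listed with the same value in every sample, and GAGE2A had 0.209, 57.3 and 64.6 TPM.

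Of 66 keratin genes, which form filaments of epithelial cells, 9 were expressed, and of all 19652 protein-coding genes 11005 were. KRT18 was the highest, followed by KRT7 (57.2 ± 5.84 TPM), KRT15 (34.4 ± 6.99 TPM) and KRT10 (28.2 ± 1.52 TPM). The spreads of KRT15 and KRT10 overlapped. Chromosome 22, which holds the lambda locus, had 2.65% of the expressed genes and 4.41% ± 0.0695 of the TPM, and IGLC2 alone was 31.3% of the latter.

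Transcripts not matched to GENCODE 29 held 2.72% of the TPM. At 0.5 TPM or more there were 1933 of them, and 932 had the same value in all 3 samples as a matched transcript. Of these, 927 could be assigned to 1 gene, and they raised 219 genes, 63 of them on chromosome 6. The mean rose by 1.5 times or more in 174 genes. RPS18 went from 508 to 2538 TPM, TUBB from 73.6 to 440 TPM and the antigen presentation genes PSMB9 and TAP1 from 10.7 to 81.6 TPM and from 8.61 to 50.9 TPM. Outside chromosome 6, RPL7A went from 1575 to 3150 TPM and HYOU1, an ER chaperone gene, from 251 to 501 TPM. Levels of such genes depend on whether copies of 1 transcript are summed, and the cause of the equal values was not tested.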
